A study of Bos taurus with 6 samples.

Results

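Oxidative phosphorylation genes encoded in the nucleus were followed in testis RNA of cattle. They were taken from the table of genes by symbol, as the entries whose names begin with NDUF, SDHA to SDHD, UQCR, COX and a digit, or ATP5, together with CYC1 and CYCS, outside the mitochondrial chromosome. The rule gave 107 genes of the 47249 in the table. A test required that 3 or more of the 6 libraries reach 1 FPKM, which left 105 of them among 18115 genes tested in all. The remaining 2 were COX6A2, at or below 0.0511 FPKM in each library, and NDUFA4L2, between 0.243 and 1.90 FPKM. FPKM is a level per length, the fragments of a gene per kilobase of its transcript after division by the mapped total of its library. No gene symbol occurred in more than 1 row.

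The samples were slices cut from the middle of the testis of Wandong cattle, a local Chinese breed, for which no treatment was named. By label, 3 were from immature calves aged 3 months and 3 from mature bulls aged 3 years. Each library was made from total RNA of 1 animal after removal of ribosomal RNA, and libraries are numbered within their group, from calf 1 to bull 3. Testis tissue mixes germ cells with Sertoli, Leydig and other somatic cells, so fewer cells of a type and less RNA per cell cannot be told apart in any comparison below. The tables give no read counts, so how far counting error reaches in any value is unknown.

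The mitochondrial respiratory chain takes electrons from NADH at complex I and from succinate at complex II, passes them through complex III and cytochrome c to oxygen at complex IV, and the proton gradient it builds drives ATP synthase. A few subunits are encoded by mitochondrial DNA and all others by nuclear genes. Some nuclear subunits exist as pairs of paralogs, of which one is made in most tissues and the other mainly in muscle, lung or testis. In the testis, Sertoli cells supply lactate to the germ cells, and the mitochondria of mature sperm are wrapped around the midpiece of the tail.

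The libraries were first compared with markers of cell types. Summed over 8 markers of spermatocytes, levels were 17.7, 23.2 and 3.48 FPKM in the calves and 307, 366 and 331 FPKM in the bulls, and over 7 markers of elongating spermatids 1.95, 2.21 and 1.42 FPKM in the calves and 16153, 14699 and 14324 FPKM in the bulls. All 8 and all 7 of these markers were called higher in bulls. Over 10 Sertoli cell markers the sums were 1841, 1554 and 469 FPKM in the calves and 271, 288 and 298 FPKM in the bulls. Most of the sum in calf 3 was CLDN11, a gene of myelin as well, and without it the other 9 markers were at 1839.6, 1536 and 40.1 FPKM in the calves and 209, 204 and 225 FPKM in the bulls, lowest in calf 3. Sums were taken likewise over 7 Leydig cell markers, at 1391, 1089 and 0.502 FPKM in the calves and 2169, 1469.7 and 2626 FPKM in the bulls. The library labelled calf 3 thus went against its label: the Sertoli cell markers GATA4, FSHR and WT1 were listed at 0 there. Not all of the 10 were low: KITLG was highest in calf 3, at 24.5 FPKM. SOX9, at 13.7 FPKM, lay between the other calves and the bulls. In calf 3, 6 oligodendrocyte markers summed to 13017 FPKM against 19.7 to 29.4 FPKM in the other libraries. The sum over 4 astrocyte markers was 1644 FPKM in calf 3 and at most 6.75 FPKM elsewhere. Over 5 neuron markers it was 649 FPKM in calf 3 and at most 15.8 FPKM elsewhere. Calf 3 was kept with the calves as labelled, and the counts and most named changes are also given without it. Over 7 markers of spermatogonia, the sums were 67.4, 76.3 and 284 FPKM in the calves and 64.0, 59.0 and 60.3 FPKM in the bulls. Most of the sum in calf 3 was UCHL1, at 201 FPKM, and 4 of the 7 markers were highest in that library. NANOS2 was listed at 0 in calf 3, and STRA8 and KIT, at 0.290 and 8.90 FPKM, were lower there than in the other calves. Of the 7 spermatogonia markers, 5 were lower in all bulls than in calf 1 and calf 2, and 1 was higher in all bulls than in all calves. Markers of spermatocytes and elongating spermatids moved together with age in these animals. The part of cell composition in the results below was not tested.

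Most of the respiratory chain genes moved by less than 2-fold between calves and bulls, and among the others more were higher than lower in bulls. With log2(FPKM + 1) as the scale, limma for the test, and a call only where the adjusted p was under 0.05 and the log2 change reached 1 in either direction, 21 of the 105 genes (20%) were called higher in bulls, where the share over all genes tested was 35.7%. In the other direction, 7 genes (6.67%) were called lower, against 9.61% of all genes. Without calf 3, the call was higher for 21 genes, of which 18 were shared with the first count, beside 37.9% of all genes, and lower for 9 genes including all 7 of the first count, beside 13.6% of all genes. At an adjusted p below 0.05 with any fold, 34 genes were higher and 15 lower, together 46.7% of the set against 56.1% of all genes. Values of calves and bulls did not overlap for 70 genes, 66.7% of the set, where the share over all genes was 67.4%. The median log2 fold change, bulls minus calves, was 0.16 over the 105 genes and 0.43 over all genes, and without calf 3 it was 0.15 and 0.43. Fold changes of the set were also less spread, with an SD of 1.16 against 1.75 over all genes on the log2 scale. The difference between the set and all genes was not tested.

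The direction of the small changes depended on how libraries were set against each other, and the summed FPKM of a library ran from 587066 to 1098715. After rescaling to the same sum over nuclear genes with a symbol, the median over all genes was 0.17 and that of the set -0.16, with 14 genes called higher, beside 31.4% of all genes, and 11 lower, beside 13.9%. After quantile normalization the medians were -0.26 and -0.53, with 13 genes called higher, beside 21.1% of all genes, and 27 lower, beside 25.1%. With FPKM as deposited and under both rescalings, each with and without calf 3, the same 18 genes passed in the same direction. Those higher in bulls were NDUFA6, NDUFB4, NDUFAF2, NDUFAF3, UQCRB, UQCR10, COX6B2, COX7B2, COX7A2, COX10 and ATP5MPL. Those lower in bulls were NDUFB11, UQCRH, COX7A1, COX7B, COX8A, NDUFA4 and ATP5MC2.

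**Figure D1:**
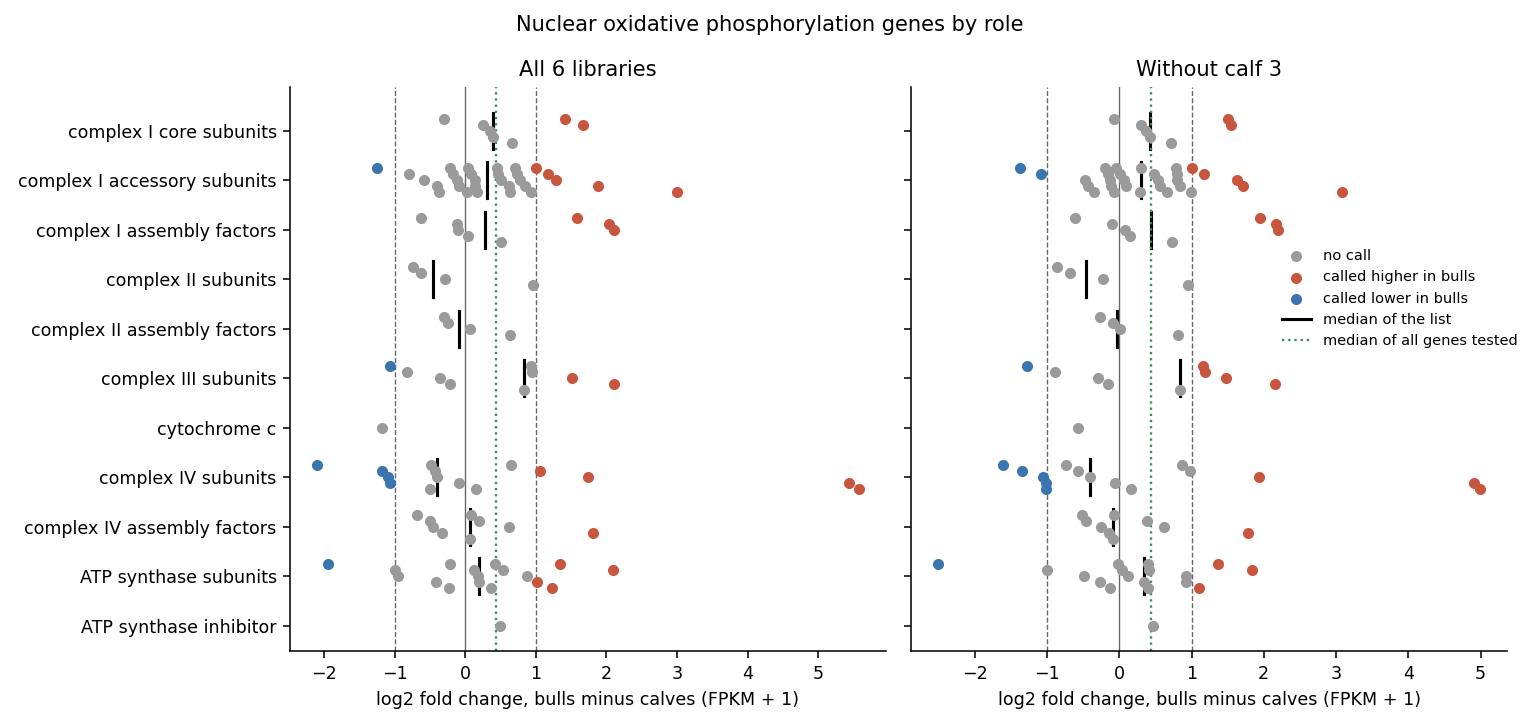
Log2 fold change of each gene tested, bulls minus calves on the log2(FPKM + 1) scale, by role, with all 6 libraries and without calf 3. Points are genes, colours mark calls, dashed lines a change of 1, black bars the list medians and the dotted line the median of all genes; most genes lie between -1 and 1, and COX7B2 and COX6B2 stand farthest to the right.

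Beside the counts for each complex below stand the shares over all genes tested: 35.7% called higher, 9.61% called lower and 67.4% without overlap. Without calf 3 the shares called were 37.9% and 13.6%. Complex I, the NADH dehydrogenase, held 37 of the nuclear subunits. Of its 7 core subunits, which carry the flavin and the iron-sulphur clusters, 2 were called higher and none lower. NDUFV2, an iron-sulphur subunit of the NADH-binding arm, was at 66.2, 78.4 and 50.5 FPKM in calf 1 to calf 3 and 238, 179 and 204 FPKM in bull 1 to bull 3. All bulls lay above all calves, and NDUFV2 rose by 1.67 ± 0.23 (SE, adjusted p = 0.00134) on the log2 scale and by 1.5001 without calf 3, a call that was lost only when quantile normalization was combined with leaving out calf 3. NDUFS8, which holds iron-sulphur clusters on the path to ubiquinone, was at 19.0, 24.9 and 29.1 FPKM in calf 1 to calf 3 and 64.0, 66.5 and 66.8 FPKM in bull 1 to bull 3. It rose by 1.42 ± 0.19 (SE, adjusted p = 0.00119) and by 1.55 without calf 3, with no overlap between the groups, and lost the call after quantile normalization. The other core subunits ranged in log2 fold change from -0.31 for NDUFS1, the biggest protein of the complex, to 0.67 for NDUFS7. NDUFS3 had a log2 fold change of 0.25 ± 0.15 (SE, adjusted p = 0.201) and was lower rather than higher after each rescaling with all 6 libraries.

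Among the 30 accessory subunits of complex I, which surround the core, 5 were called higher and 1 lower, with a median log2 fold change of 0.30 that was below 0 after either rescaling of the 6 libraries. NDUFA6 was the most abundant nuclear subunit of complex I in bulls, at 29.9, 35.7 and 39.0 FPKM in calf 1 to calf 3 and 238, 347 and 281 FPKM in bull 1 to bull 3. It rose by 3.004 ± 0.21 (SE, adjusted p = 8.76e-05) on the log2 scale and by 3.09 without calf 3, and the lowest bull lay far above the highest calf. NDUFA6 lies on chromosome 5, 113045844 to 113056944 in the table, where no other entry overlapped it. NDUFB4, an accessory subunit of the membrane arm, was at 43.5, 64.7 and 36.8 FPKM in calf 1 to calf 3 and 204, 167 and 159 FPKM in bull 1 to bull 3, again without overlap. The change of NDUFB4 was a rise by 1.88 ± 0.26 (SE, adjusted p = 0.00126), and by 1.71 without calf 3.

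NDUFA5, NDUFA9 and NDUFB1 were called higher with log2 fold changes of 1.28, 1.17 and 1.005, and all 3 lost the call after either rescaling of the 6 libraries, NDUFB1 also without calf 3. In the membrane arm, NDUFB11 went the other way, with 21.95, 22.3 and 17.1 FPKM in calf 1 to calf 3 and 8.01, 7.33 and 8.49 FPKM in bull 1 to bull 3. It fell by 1.26 ± 0.17 (SE, adjusted p = 0.00116) on the log2 scale and by 1.37 without calf 3, and the groups did not overlap. NDUFB10 had a log2 fold change of -0.80 ± 0.26 (SE, adjusted p = 0.0426) and was called lower without calf 3, at -1.08, with array weights and after each rescaling. The 24 accessory subunits without a call ranged from the value of NDUFB10 to 0.94 for NDUFB9, which was called higher at 1.01 without calf 3. The summed level of the 30 subunits was 1207, 1380.5 and 1255 FPKM in the calves and 1943, 2033 and 1888 FPKM in the bulls.

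The assembly factors of complex I, proteins that help to build it and leave the finished enzyme, numbered 8, and 3 were called higher. NDUFAF3 was at 7.39, 8.23 and 8.89 FPKM in calf 1 to calf 3 and 44.3, 36.9 and 34.8 FPKM in bull 1 to bull 3, and NDUFAF2, which joins a late intermediate, at 7.94, 10.3 and 13.1 FPKM in calf 1 to calf 3 and 45.4, 48.7 and 42.1 FPKM in bull 1 to bull 3. Both showed separate groups, with rises by 2.11 ± 0.16 (SE, adjusted p = 1.19e-04) and 2.04 ± 0.20 (SE, adjusted p = 3.51e-04) on the log2 scale, and by 2.16 and 2.20 without calf 3. NDUFAF8 was called higher at 1.58, a call lost after rescaling to nuclear genes with all 6 libraries. NDUFAF1, NDUFAF6 and NDUFAF7 had log2 fold changes of -0.10, 0.043 and 0.50. NDUFAF4 had the lowest log2 fold change of the list, -0.63 ± 0.18 (SE, adjusted p = 0.0253). NDUFAF5, a hydroxylase that acts on NDUFS7, was at 2.496, 2.68 and 4.25 FPKM in the calves and 2.35, 3.55 and 2.52 FPKM in the bulls, and its log2 fold change of -0.11 changed sign without calf 3.

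Complex II, succinate dehydrogenase, links the citric acid cycle with the chain and is encoded by nuclear genes alone. None of its 4 subunits or 4 assembly factors was called, with all libraries or without calf 3. Its subunits nevertheless parted, in that SDHB was higher and SDHC and SDHD were lower in bulls at an adjusted p below 0.05 with changes under 1. SDHB, the iron-sulphur subunit, was at 47.7, 51.7 and 48.7 FPKM in calf 1 to calf 3 and 96.5, 93.0 and 100.2 FPKM in bull 1 to bull 3, and its log2 fold change was 0.95 ± 0.14 (SE, adjusted p = 0.00165). SDHC and SDHD form the membrane anchor, and their log2 fold changes were -0.74 ± 0.18 (SE, adjusted p = 0.0151) and -0.62 ± 0.15 (SE, adjusted p = 0.0127). SDHA, the catalytic flavoprotein, had a log2 fold change of -0.29 ± 0.15 (SE, adjusted p = 0.150). For all 4 the groups did not overlap, where the share over all genes was 67.4%. The summed level of the subunits was 193, 197 and 192 FPKM in the calves and 201, 199.5 and 201 FPKM in the bulls and stayed within a narrow range, each bull slightly above each calf. After rescaling to nuclear genes SDHC was called lower, and after quantile normalization SDHA, SDHC and SDHD were. The assembly factors SDHAF1, SDHAF2, SDHAF3 and SDHAF4 had log2 fold changes of 0.63, -0.30, -0.25 and 0.066, each with an adjusted p above 0.05.

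Complex III, the cytochrome bc1 complex, had 2 of 9 subunits called higher and 1 called lower, beside 35.7% and 9.61% of all genes. Calves and bulls did not overlap for any of the 9, beside 67.4% of all genes. UQCRB, a small subunit at the ubiquinone site, was at 23.7, 24.9 and 27.7 FPKM in calf 1 to calf 3 and 113, 109 and 114 FPKM in bull 1 to bull 3. UQCR10, a small single-span subunit, was at 95.3, 88.2 and 83.1 FPKM in calf 1 to calf 3 and 251, 284 and 235 FPKM in bull 1 to bull 3. In both cases each bull was above each calf, with a rise by 2.10 ± 0.14 (SE, adjusted p = 7.08e-05) for UQCRB and by 1.52 ± 0.18 (SE, adjusted p = 6.35e-04) for UQCR10 on the log2 scale, and without calf 3 by 2.16 and 1.47. The hinge protein UQCRH, which binds cytochrome c1, was at 67.5, 61.2 and 41.3 FPKM in calf 1 to calf 3 and 27.0, 26.1 and 24.7 FPKM in bull 1 to bull 3. It fell by 1.07 ± 0.22 (SE, adjusted p = 0.00682) on the log2 scale and by 1.28 without calf 3, and lost the call without calf 1, at -0.93 with an adjusted p of 0.0222. UQCR11 was lower in bulls with a log2 fold change of -0.82 ± 0.15 (SE, adjusted p = 0.00495), short of the fold needed for a call.

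The core proteins UQCRC1 and UQCRC2 and the Rieske iron-sulphur protein UQCRFS1 had log2 fold changes of 0.83, 0.94 and 0.94, and without calf 3 the latter pair was called higher at 1.19 and 1.16. CYC1, which carries the haem of cytochrome c1, had a log2 fold change of -0.36 ± 0.21 (SE, adjusted p = 0.198), and UQCRQ one of -0.21 ± 0.18 (SE, adjusted p = 0.364). In calves UQCRB was the lowest of the 9 by mean FPKM, at 25.4, and in bulls UQCRH was the lowest, at 25.9. The levels of the subunits of this complex lay further apart in bulls, with an SD over the 9 genes of 0.95 to 1.042 on the log2(FPKM + 1) scale against 0.51 to 0.72 in calves. This was not particular to complex III. For ATP synthase subunits the SD was 1.48 to 1.54 in bulls and 0.84 to 1.15 in calves, and complexes I and II went the same way. For complex IV the ranges overlapped, at 2.24 to 2.33 in bulls and 1.98 to 2.79 in calves.

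**Figure D2:**
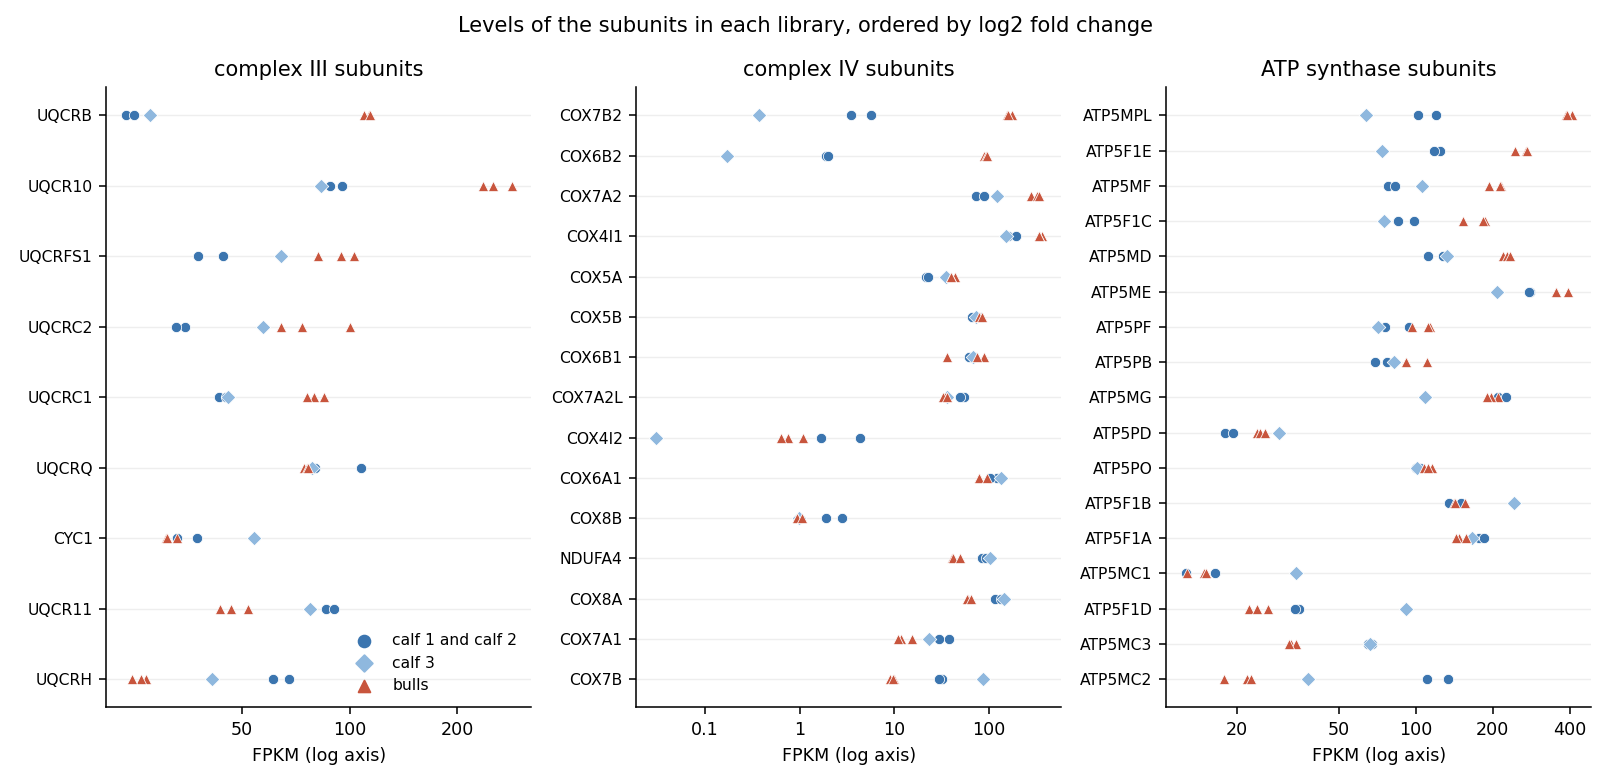
FPKM of each subunit of complex III, complex IV and ATP synthase in each library on a log axis, ordered by log2 fold change. Circles are calf 1 and calf 2, diamonds calf 3 and triangles bulls; UQCRB, UQCR10, COX7B2, COX6B2 and ATP5MPL at the top have all bulls to the right, and UQCRH, COX7B and ATP5MC2 at the bottom have all bulls to the left.

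Cytochrome c carries electrons from complex III to complex IV. CYCS, the form made in somatic cells, was at 11.49, 17.0 and 53.0 FPKM in calf 1 to calf 3 and 8.67, 9.80 and 8.88 FPKM in bull 1 to bull 3. The highest value was that of calf 3, the bulls were below all calves, and CYCS had a log2 fold change of -1.19 ± 0.54 (SE, adjusted p = 0.109) that did not pass, against -0.57 without calf 3. It was called lower without calf 1, at -1.63, and after quantile normalization. CYCT, a symbol outside the rule that names the cytochrome c of the testis, was at 2.39, 1.9995 and 0.402 FPKM in calf 1 to calf 3 and 10.8, 12.8 and 12.1 FPKM in bull 1 to bull 3. It rose by 2.41 ± 0.36 (SE, adjusted p = 0.00198) on the log2 scale and by 2.01 without calf 3. As a share of the FPKM of both genes, CYCT was 17.2%, 10.5% and 0.753% in the calves and 55.4%, 56.7% and 57.7% in the bulls.

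Complex IV, cytochrome c oxidase, showed the widest range of changes among the complexes. Of its 17 nuclear subunit genes, counting NDUFA4 and NDUFA4L2 with this complex, 15 were tested, 4 were called higher and 4 lower. Without calf 3, 3 were called higher and 5 lower, as COX4I1 lost its call and COX4I2 gained one. The summed level of the 17 genes was 843, 909 and 981 FPKM in the calves and 1286, 1375 and 1413 FPKM in the bulls. The list median was -0.40, below 0 although the sum was higher in bulls.

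Paralogs held the farthest values in either direction. COX6B2, the testis paralog of the COX6B1 subunit that faces the intermembrane space, lies on chromosome 18, 62124767 to 62126264 and was at 1.93, 1.98 and 0.173 FPKM in calf 1 to calf 3 and 88.1, 94.4 and 95.5 FPKM in bull 1 to bull 3. It rose by 5.43 ± 0.39 (SE, adjusted p = 9.16e-05) on the log2 scale and by 4.99 without calf 3, with no overlap. COX6B1 was at 61.0, 70.0 and 68.4 FPKM in calf 1 to calf 3 and 36.4, 89.7 and 74.96 FPKM in bull 1 to bull 3, so that bull 1 was below and the other 2 bulls above all calves. The log2 fold change of COX6B1 was -0.082 ± 0.35 (SE, adjusted p = 0.856), and it changed sign without bull 1. Of the FPKM of the pair, COX6B2 made up 3.06%, 2.75% and 0.252% in the calves and 70.8%, 51.3% and 56.0% in the bulls.

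COX7B and COX7B2 moved in opposite directions. COX7B2, on chromosome 6, 65334350 to 65334586, was at 5.69, 3.52 and 0.372 FPKM in calf 1 to calf 3 and 157, 176 and 159 FPKM in bull 1 to bull 3. COX7B, on chromosome X, 74502511 to 74507315, was at 32.1, 29.9 and 87.1 FPKM in calf 1 to calf 3 and 9.997, 8.93 and 9.61 FPKM in bull 1 to bull 3. Neither gene had overlapping groups. COX7B2 rose by 5.57 ± 0.58 (SE, adjusted p = 4.08e-04) and COX7B fell by 2.10 ± 0.42 (SE, adjusted p = 0.00660) on the log2 scale, and without calf 3 the values were 4.90 and -1.61. Of the FPKM of this pair, COX7B2 made up 15.1%, 10.5% and 0.425% in the calves and 94.0%, 95.2% and 94.3% in the bulls. The entry of COX7B2 spans 237 bases, and how FPKM was set for so short an entry is not given in the sources used here. The entry was also overlapped by 2 entries without a gene symbol. Summed, COX7B and COX7B2 were at 37.8, 33.5 and 87.5 FPKM in the calves and 167, 185 and 168 FPKM in the bulls.

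The heart and muscle form COX7A1 and its more widely made paralog COX7A2 also changed in opposite directions. COX7A2 was at 74.0, 89.0 and 122 FPKM in calf 1 to calf 3 and 277, 321 and 340.0 FPKM in bull 1 to bull 3, and COX7A1 at 37.8, 29.9 and 23.3 FPKM in calf 1 to calf 3 and 11.9, 11.02 and 15.4 FPKM in bull 1 to bull 3. COX7A2 rose by 1.73 ± 0.25 (SE, adjusted p = 0.00151) and COX7A1 fell by 1.17 ± 0.23 (SE, adjusted p = 0.00619) on the log2 scale, both without overlap, and without calf 3 by 1.93 and 1.34. The 8 striated muscle markers summed to 20.7, 32.6 and 6.38 FPKM in the calves and 37.9, 29.7 and 55.6 FPKM in the bulls, most of it TNNT1. The other 7 summed to 4.72, 5.03 and 1.61 FPKM in the calves and 2.71, 1.82 and 2.18 FPKM in the bulls, so that the bulls were below calf 1 and calf 2 and above calf 3, with MYL1, CKM and ACTA1 below 0.5 FPKM in each library. Of the 8 markers, 5 were lower in all bulls than in calf 1 and calf 2, and 1 was higher in all bulls than in all calves. The part of muscle RNA in the level of COX7A1 was not tested. COX7A2L had a log2 fold change of -0.40 ± 0.19 (SE, adjusted p = 0.132).

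COX4I1 was the most abundant nuclear subunit of complex IV in both groups. Its levels were 158, 196 and 151 FPKM in calf 1 to calf 3 and 363, 340.2 and 342 FPKM in bull 1 to bull 3, with all bulls above all calves. It rose by 1.06 ± 0.20 (SE, adjusted p = 0.00570) on the log2 scale and lost the call at 0.98 without calf 3, just under the fold needed. The call was also lost after rescaling to nuclear genes, at 0.73, and after quantile normalization, at 0.99. COX4I2, the paralog of lung and of tissues low in oxygen, was at 4.32, 1.67 and 0.0301 FPKM in calf 1 to calf 3 and 0.756, 0.632 and 1.09 FPKM in bull 1 to bull 3, and its groups overlapped through calf 3. Its log2 fold change was -0.43 ± 0.58 (SE, adjusted p = 0.559) with all libraries, and -1.051 without calf 3, when it was called lower. Without calf 1 its sign reversed, to 0.13.

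COX8A and NDUFA4, single-span subunits of complex IV, both fell. COX8A was at 117, 135 and 146 FPKM in calf 1 to calf 3 and 60.3, 59.4 and 64.9 FPKM in bull 1 to bull 3, and NDUFA4 at 85.0, 94.2 and 102 FPKM in calf 1 to calf 3 and 40.9, 41.6 and 49.8 FPKM in bull 1 to bull 3. The bulls were below all calves in both, with falls by 1.09 ± 0.16 (SE, adjusted p = 0.00185) and 1.07 ± 0.16 (SE, adjusted p = 0.00203) on the log2 scale, and by 1.02 and 1.01 without calf 3. COX8B, the muscle paralog of COX8A, was between 0.943 and 2.81 FPKM and had a log2 fold change of -0.50 ± 0.25 (SE, adjusted p = 0.137). COX5A, COX5B and COX6A1 had log2 fold changes of 0.64, 0.16 and -0.49 and were not called with all 6 libraries or without calf 3.

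The balance within a pair of paralogs was compared as the log2 ratio of their values in each library, with 1 FPKM added to both. For 10 of the 12 pairs computed both genes passed the filter. In 8 of these the ratios of calves and bulls did not overlap, beside 67.4% of all genes for single levels. The share over ratios of other gene pairs was not computed. The ratios of COX6A1 to COX6A2 and of NDUFA4 to NDUFA4L2 did not overlap either, but COX6A2 was near 0 in each library, so that the first of these ratios repeats the level of COX6A1 and shows no balance, and NDUFA4L2 did not pass the filter. NDUFA4L2, COX4I2 and COX8B were low beside the 1 FPKM added, so that ratios with them move with the scaling of a library, and no ratio was computed after rescaling. The exact two-sided permutation test over the 20 labelings gave p = 0.1 for these 10 pairs without overlap, the smallest it can give with 3 against 3, and 0.12 after adjustment over the 12 pairs. The ratio of COX7B to COX7B2 differed by -7.67 on the log2 scale, bulls minus calves (-6.51 without calf 3), that of COX6B1 to COX6B2 by -5.51 (-5.05), and that of CYCS to CYCT by -3.59 (-2.58). In these pairs the share of the testis paralog was larger in each bull than in any calf. On the same log2 scale, for COX7A2 to COX7A1 the ratio was higher in bulls by 2.91, and for COX4I1 to COX4I2 by 1.48. Calf 3 lay at the far end of the calves, away from the bulls, for COX6B1 to COX6B2, COX7B to COX7B2 and CYCS to CYCT, and at the end nearest to the bulls for COX7A2 to COX7A1 and COX4I1 to COX4I2. The ratio of COX8A to COX8B differed by -0.59. Of the ADP/ATP carriers, the ratio of SLC25A5 to SLC25A31 differed by -5.80 (-4.31 without calf 3) and that of SLC25A5 to SLC25A4 by -1.62 (-1.27). The 2 pairs whose ratios overlapped, through calf 3, were those of ATP5MC2 to ATP5MC1 and to ATP5MC3, with differences of -1.54 (p = 0.400, exact permutation test) and -0.95 (p = 0.300). Without calf 3, the smallest p the test can give is 0.2, and all 12 pairs had it.

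**Figure D3:**
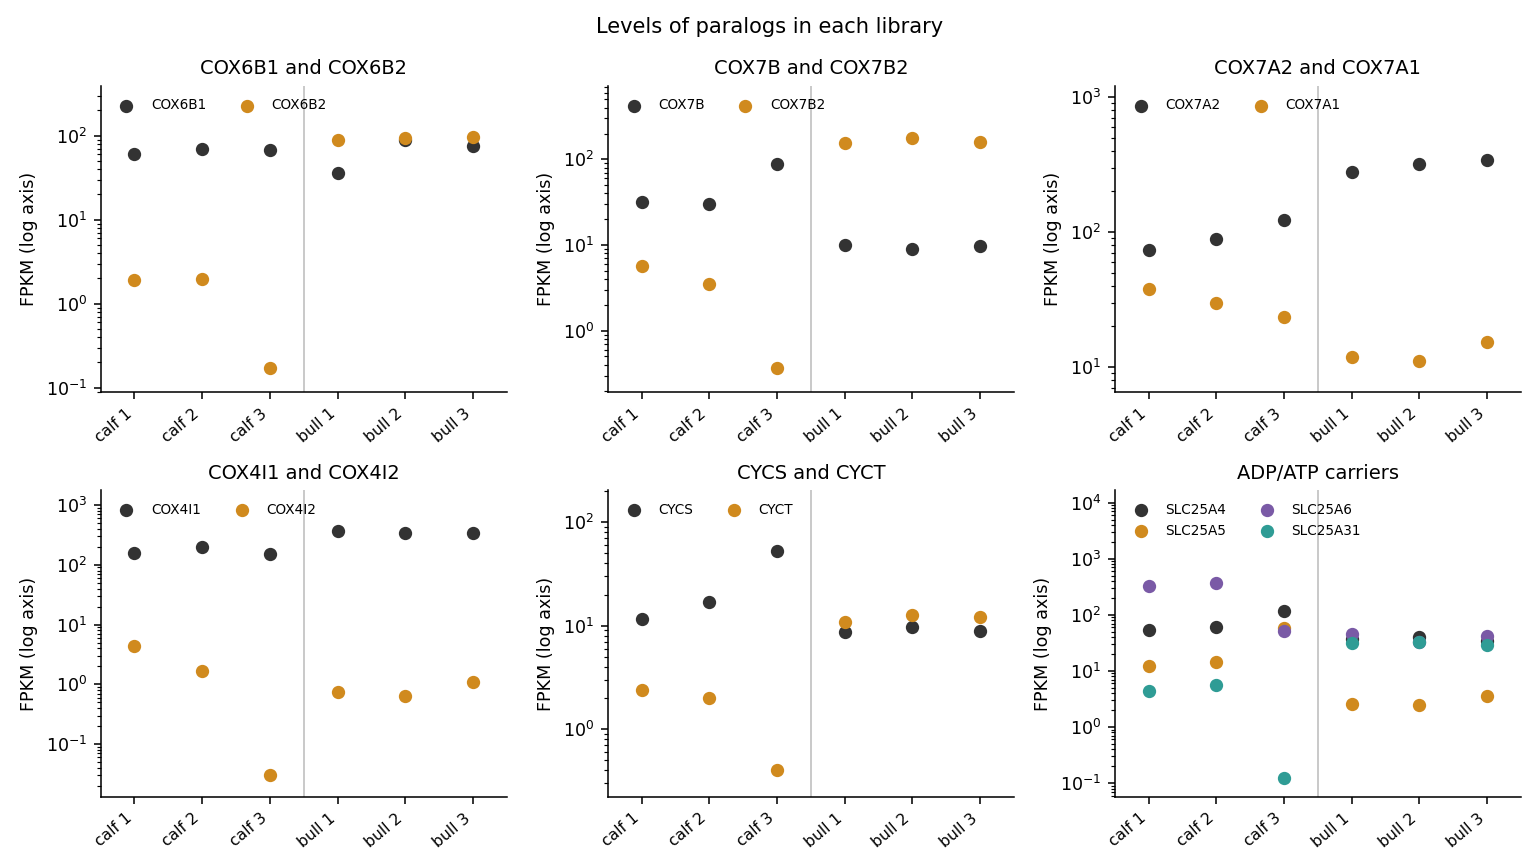
FPKM of paralogs in each library on a log axis, for 4 pairs of complex IV, the cytochromes c and the ADP/ATP carriers. COX7B2 is above COX7B in bulls and below it in calves, COX6B2 reaches the level of COX6B1 in bulls, and SLC25A31 lies far below the other carriers in calf 3.

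The assembly factors of complex IV numbered 9, of which 1 was called higher. COX10, which turns haem B into haem O on the way to the haem A of the enzyme, was at 5.32, 6.93 and 5.58 FPKM in calf 1 to calf 3 and 24.4, 24.3 and 21.1 FPKM in bull 1 to bull 3, with a wide gap between the groups, and rose by 1.81 ± 0.16 (SE, adjusted p = 2.30e-04) on the log2 scale and by 1.77 without calf 3. COX17, a copper chaperone, had a log2 fold change of 0.63 ± 0.22 (SE, adjusted p = 0.0505). COX18, which inserts a mitochondrial subunit into the membrane, and COX14 had the lowest log2 fold changes, -0.69 ± 0.21 (SE, adjusted p = 0.0342) and -0.49 ± 0.27 (SE, adjusted p = 0.172). COX11, COX15, COX16, COX19 and COX20 ranged from -0.45 to 0.20.

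ATP synthase had 17 subunit genes tested, of which 4 were called higher and 1 lower, and 3 and 1 without calf 3, when ATP5F1C lost its call. The summed level was 1792, 1925 and 1688 FPKM in the calves and 2564, 2570.5 and 2553 FPKM in the bulls. ATP5MPL, a small protein of the membrane part, was the most abundant of them in bulls, at 102, 120.1 and 63.8 FPKM in calf 1 to calf 3 and 408, 386 and 391 FPKM in bull 1 to bull 3. ATP5MPL rose by 2.09 ± 0.28 (SE, adjusted p = 0.00115) on the log2 scale and by 1.83 without calf 3, and its groups were apart. ATP5F1E, the epsilon subunit of the rotor stalk, was at 124, 118 and 73.5 FPKM in calf 1 to calf 3 and 269, 272 and 244 FPKM in bull 1 to bull 3. It rose by 1.34 ± 0.26 (SE, adjusted p = 0.00534), by 1.10 without calf 3, and lost the call after quantile normalization and after rescaling to nuclear genes without calf 3. ATP5MF and ATP5F1C, the gamma subunit, were called higher at 1.23 and 1.01, and both lost the call after either rescaling of the 6 libraries.

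The catalytic part showed smaller changes. ATP5F1A and ATP5F1B, the alpha and beta subunits that bind nucleotides, had log2 fold changes of -0.23 ± 0.17 (SE, adjusted p = 0.282) and -0.21 ± 0.27 (SE, adjusted p = 0.527). ATP5ME, the most abundant member of the whole set by its mean over all libraries, was at 279, 278 and 207 FPKM in calf 1 to calf 3 and 355, 353 and 394 FPKM in bull 1 to bull 3, with all bulls above all calves. Its log2 fold change was 0.54 ± 0.23 (SE, adjusted p = 0.0926). The stalk and membrane subunits ATP5PO, ATP5PB, ATP5PD, ATP5PF, ATP5MD and ATP5MG had log2 fold changes from 0.13 for ATP5PO to 0.87 for ATP5MD, none called. ATP5F1D, the delta subunit, had one of -0.96 ± 0.40 (SE, adjusted p = 0.0897). ATP5IF1, the inhibitor that stops the enzyme from running in reverse, had one of 0.50 ± 0.18 (SE, adjusted p = 0.0575), with a sign that reversed after quantile normalization.

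Subunit c, which forms the turning ring in the membrane, is encoded by ATP5MC1, ATP5MC2 and ATP5MC3, whose products differ in the import signal and share the mature protein. ATP5MC2, on chromosome 5, 26370053 to 26378227, was at 111, 134 and 37.7 FPKM in calf 1 to calf 3 and 21.8, 17.8 and 22.7 FPKM in bull 1 to bull 3. Bulls were below all calves, and calf 3 stood between the other calves and the bulls. ATP5MC2 fell by 1.95 ± 0.48 (SE, adjusted p = 0.0154) on the log2 scale and by 2.504 without calf 3. Leaving out any 1 bull ended its call, with adjusted p from 0.0502 to 0.0617 for changes of -2.01 to -1.85.

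ATP5MC3 was at 65.1, 67.5 and 66.4 FPKM in calf 1 to calf 3 and 32.4, 33.8 and 31.9 FPKM in bull 1 to bull 3, the groups far apart, and its log2 fold change of -0.9985 (adjusted p = 0.00102) fell just short of the fold required. It was called lower after each rescaling, with a pseudocount of 0.1, without calf 1 and without bull 2. ATP5MC1 was at 16.4, 12.6 and 33.9 FPKM in calf 1 to calf 3 and 12.7, 14.8 and 15.1 FPKM in bull 1 to bull 3, and calf 3 was the high value. Its log2 fold change was -0.41 ± 0.36 (SE, adjusted p = 0.375). The 3 genes summed to 192, 214 and 138 FPKM in the calves and 67.0, 66.4 and 69.7 FPKM in the bulls, lower in each bull than in any calf, while with FPKM as deposited the other called subunits of the enzyme were higher in bulls.

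The summed level of all 107 genes was 5068, 5565 and 5305 FPKM in the calves and 7747, 7961 and 7736 FPKM in the bulls. The bulls were above all calves in this sum, and in the sums over the subunits of complexes I, II, III and IV and of ATP synthase. As a share of the FPKM of nuclear genes with a symbol, however, the set made up 1.70%, 1.81% and 2.20% in the calves and 2.19%, 2.27% and 2.23% in the bulls, and calf 3 lay within the range of the bulls. For complex II the share was 0.0650%, 0.0643% and 0.0797% in the calves and 0.0569%, 0.0568% and 0.0578% in the bulls, lower in bulls than in calves.

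**Figure D4:**
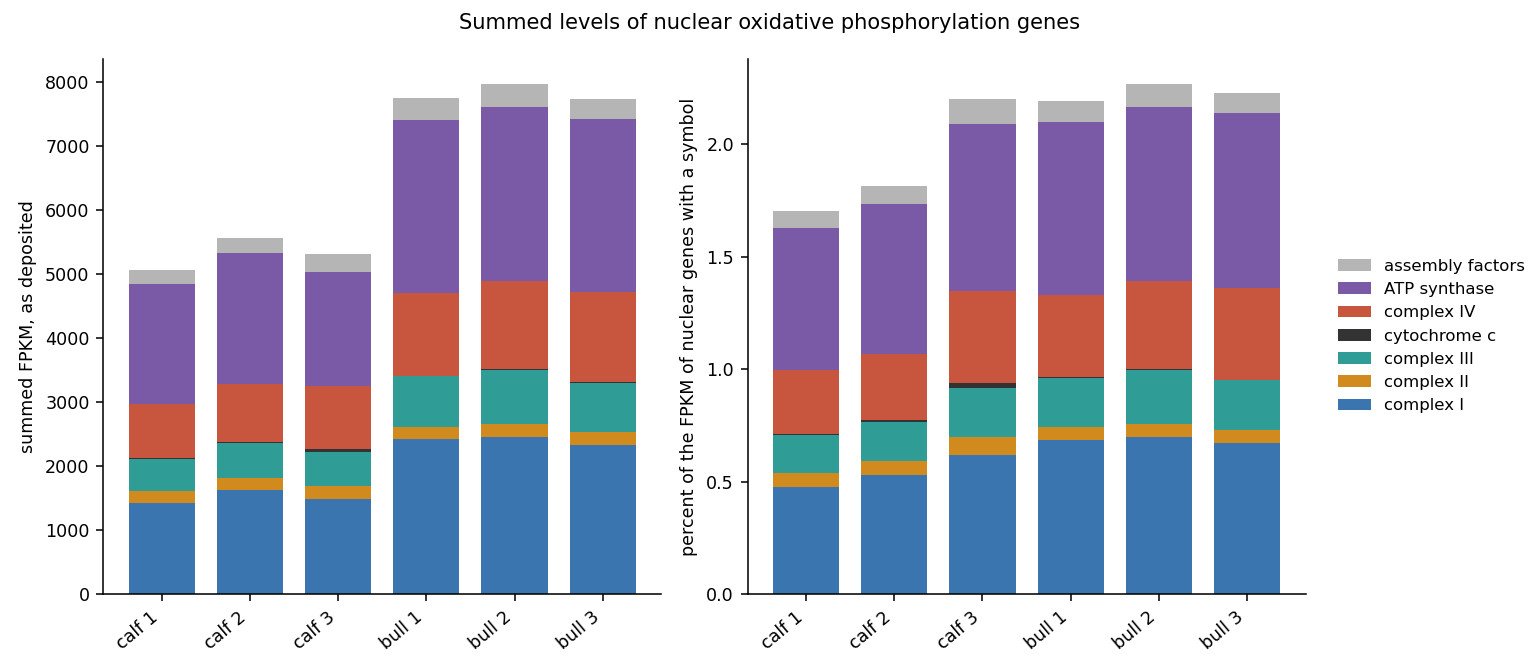
Stacked sums over the genes of each complex in each library, as FPKM and as a percent of the FPKM of nuclear genes with a symbol. By FPKM the 3 bulls stand above the 3 calves, and by percent calf 3 reaches the height of the bulls.

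The table of transcripts split the set into 250 entries, of which 168 were tested, and 48 genes had a single entry. Of the entries tested, 43 were called higher, beside 34.8% of all transcripts, and 8 lower, beside 9.37%. Without calf 3 these counts were 43 and 12, beside 36.1% and 13.1% of all transcripts. Each of the 28 genes called had an entry called in the same direction. That match adds no support to the calls of genes, since the level of a gene is the sum over its entries. A gene with a single entry repeats the values of that entry. A further 10 genes that were not called had an entry called higher, among them ATP5MD, SDHB and COX17. Entries near 0 in calves could pass the filter through the bulls alone, as TCONS_00232876 of ATP5MD did. Such entries could be called higher but not lower, and the counts of entries called higher include them.

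COX4I1 was the 1 gene with entries called in both directions. The entries COX4I1-201 and COX4I1-202 share their end on chromosome 18, 11767078, and differ in their start, 11758912 against 11759871. COX4I1-202 was at 156, 194 and 148 FPKM in calf 1 to calf 3 and 41.7, 45.4 and 39.6 FPKM in bull 1 to bull 3. COX4I1-201 was at 1.11, 0.632 and 1.58 FPKM in calf 1 to calf 3 and 315, 287 and 296 FPKM in bull 1 to bull 3. The calves thus held COX4I1 almost wholly as the shorter entry, with 98.7% of the FPKM of the gene on average, and in bulls the longer entry made up 85.8%. COX4I1-201 rose by 7.18 ± 0.21 (SE, adjusted p = 5.79e-06) and COX4I1-202 fell by 1.94 ± 0.18 (SE, adjusted p = 3.02e-04) on the log2 scale, and the calls were the same without calf 3. COX4I1-OT1 is the remaining entry; it starts at 11747967, before both, and was at 0.936, 1.14 and 1.054 FPKM in the calves and 6.26, 8.08 and 7.01 FPKM in the bulls.

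ATP5MD and NDUFA5 showed entries that were nearly absent from calves. ATP5MD-201 was at 111, 127 and 130.1 FPKM in calf 1 to calf 3 and 89.8, 84.9 and 84.1 FPKM in bull 1 to bull 3. The assembled entry TCONS_00232877, which shares its start and ends earlier, was at 0.646, 0.460 and 1.98 FPKM in calf 1 to calf 3 and 92.1, 98.6 and 106 FPKM in bull 1 to bull 3, and TCONS_00232876, with the same ends, was listed at 0 in all calves and at 37.2, 44.4 and 44.3 FPKM in the bulls. The higher gene level of ATP5MD in bulls lay in these assembled entries, while ATP5MD-201 had a log2 fold change of -0.50 ± 0.17 (SE, adjusted p = 0.0439). NDUFA5-201 had 13.7, 18.2 and 32.0 FPKM in calf 1 to calf 3 and 14.0, 13.2 and 14.6 FPKM in bull 1 to bull 3 and a log2 fold change of -0.49 ± 0.31 (SE, adjusted p = 0.232). The rest of the NDUFA5 level in bulls came from assembled entries that reach beyond its end, and these differed between bulls: TCONS_00288483 was at 18.5, 5.001 and 24.2 FPKM, and TCONS_00288485 at 25.8, 0.0174 and 0 FPKM. Levels of entries that share exons are estimates that divide common fragments among them.

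**Figure D5:**
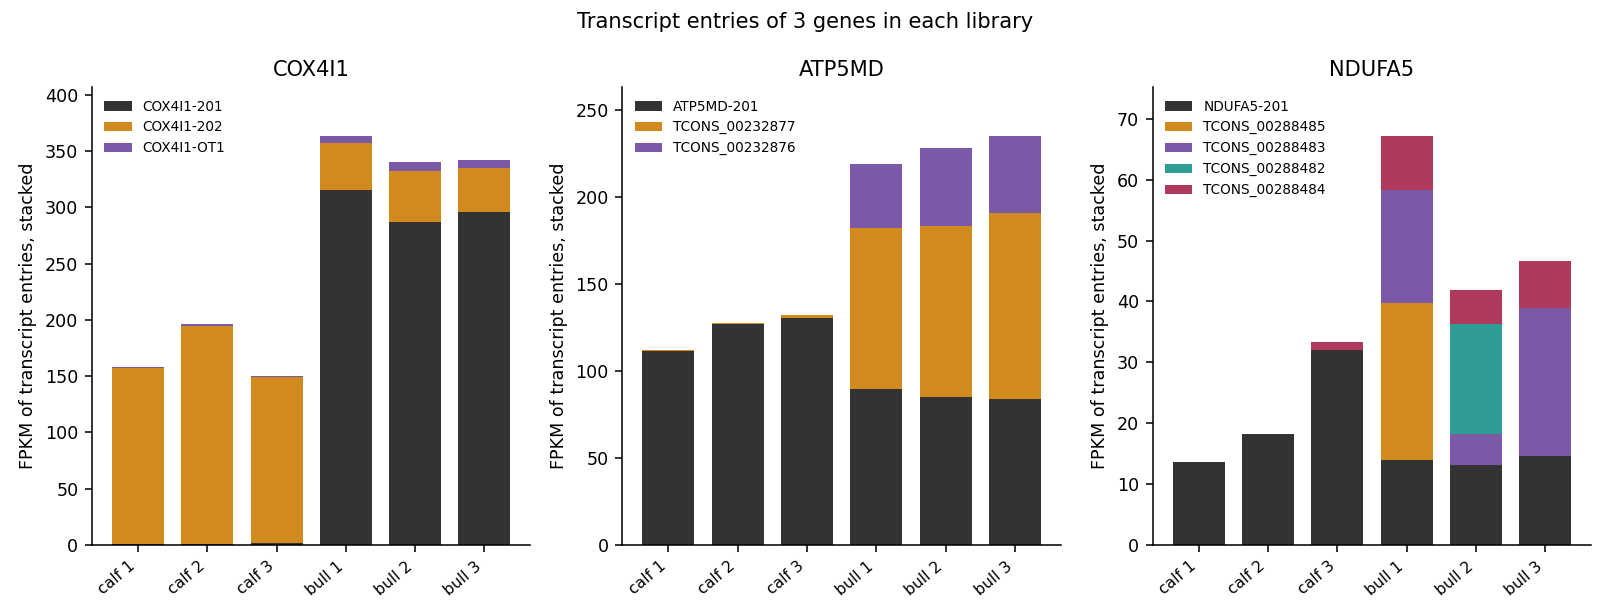
FPKM of the transcript entries of COX4I1, ATP5MD and NDUFA5, stacked for each library. COX4I1-202 fills the bars of the calves and COX4I1-201 most of those of the bulls, while ATP5MD and NDUFA5 gain assembled entries in bulls on top of an entry present in all 6 libraries.

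Some of the genes share ground with a neighbour. Of the 105 genes tested, 43 overlapped another entry with a symbol, among them 10 of the 28 called, NDUFS8, NDUFB1, NDUFB11, NDUFAF2, NDUFAF3, NDUFAF8, UQCRH, COX4I1, ATP5F1C and ATP5MPL. The libraries were made strand-specific, but whether strand was used in the counting is not given in the sources used here, and fragments of overlapping genes may then have been counted for both. The neighbours of 4 of these 10 genes had groups apart in the direction of the gene. ATXN3, which overlaps NDUFB1, was at 8.64, 8.98 and 9.72 FPKM in the calves and 48.5, 49.9 and 58.4 FPKM in the bulls, TDRD9, which overlaps ATP5MPL, at 4.57, 6.60 and 0.464 FPKM in the calves and 50.04, 34.6 and 52.2 FPKM in the bulls, and EMC8, which overlaps COX4I1, at 14.3, 15.5 and 9.89 FPKM in the calves and 73.2, 76.1 and 66.6 FPKM in the bulls. RBM10, which overlaps NDUFB11, was lower in bulls, at 14.4, 14.8 and 14.8 FPKM in the calves and 5.01, 4.24 and 4.30 FPKM in the bulls. The neighbours of the other 6 did not: UNC93B1, ERCC8, DALRD3 and TEPSIN, which overlap NDUFS8, NDUFAF2, NDUFAF3 and NDUFAF8, had overlapping groups, with UNC93B1 at 10.5, 11.3 and 5.39 FPKM in the calves and 7.83, 9.44 and 9.64 FPKM in the bulls. KIN, which overlaps ATP5F1C, was lower in each bull, at 5.24, 5.33 and 5.98 FPKM in the calves and 4.28, 3.97 and 3.88 FPKM in the bulls, and LRRC41, which overlaps UQCRH, was higher in each bull, at 30.4, 35.0 and 20.4 FPKM in the calves and 43.1, 44.7 and 41.3 FPKM in the bulls. COX6B2, COX7A2, COX7B, UQCRB, UQCR10 and ATP5MC2 overlapped no other entry with a symbol.

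The 3 genes of the set on chromosome X were NDUFA1, NDUFB11 and COX7B, and 2 of them were called lower. Of 664 genes tested on chromosome X, 30.3% were called lower, against 8.92% of 17173 on the autosomes, and the median log2 fold change was -0.38 against 0.44. NDUFA1 was at 50.6, 61.5 and 76.3 FPKM in calf 1 to calf 3 and 27.8, 57.1 and 43.7 FPKM in bull 1 to bull 3, with overlapping groups and a log2 fold change of -0.58 ± 0.31 (SE, adjusted p = 0.157).

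Calf 3 lay at least 2-fold from both other calves for a minority of the set. Its level was at least 2-fold above both for 5 of the 105 genes, ATP5MC1, NDUFAF8, ATP5F1D, COX7B and CYCS, and at least 2-fold below both for 6, COX4I2, COX7B2, COX6B2, ATP5MC2, NDUFA7 and NDUFC2. The other calves were themselves 2-fold apart for 2 genes. The share of such genes over all genes was not computed, and smaller deviations of calf 3 were not counted here. At an adjusted p below 0.05 in the limma fit with any fold, 47 genes were higher and 22 lower without calf 3, against 34 and 15 with it.

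Other genes of the respiratory chain that the rule did not take numbered 84 tested of 93 listed. In this list 14 were called higher, beside 35.7% of all genes, and 6 lower, beside 9.61%. Without calf 3 the counts were 13 and 9, beside 37.9% and 13.6% of all genes. The same shares over all genes stand beside the counts of each sublist below. Of 39 assembly factors tested, 7 were called higher and 1 lower. LYRM7, which guards the Rieske protein before its insertion into complex III, was at 7.24, 8.77 and 17.4 FPKM in calf 1 to calf 3 and 77.4, 88.7 and 86.2 FPKM in bull 1 to bull 3, and ATPAF2, which helps to assemble the catalytic head of ATP synthase, at 3.83, 6.84 and 4.22 FPKM in calf 1 to calf 3 and 23.9, 27.6 and 27.7 FPKM in bull 1 to bull 3. Both were higher in all bulls, with rises by 2.90 ± 0.32 (SE, adjusted p = 5.21e-04) and 2.23 ± 0.23 (SE, adjusted p = 3.79e-04) on the log2 scale. UQCC3, a further assembly factor of complex III, fell by 1.22 ± 0.25 (SE, adjusted p = 0.00677). Without calf 3 the log2 fold changes of LYRM7, ATPAF2 and UQCC3 were 3.24, 2.15 and -1.45.

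Of 17 regulators tested, 3 were called higher and 1 lower. TFAM, which packs mitochondrial DNA and starts its transcription, was at 14.8, 14.1 and 13.2 FPKM in calf 1 to calf 3 and 197, 205 and 226 FPKM in bull 1 to bull 3. TFAM rose by 3.81 ± 0.14 (SE, adjusted p = 9.63e-06) on the log2 scale and by 3.77 without calf 3, the farthest change among the regulators. The accessory subunit POLG2 of the mitochondrial DNA polymerase rose by 1.88 ± 0.15 (SE, adjusted p = 1.28e-04), and by 1.84 without calf 3, and its catalytic subunit POLG had a log2 fold change of -0.93 ± 0.25 (SE, adjusted p = 0.0211). NRF1 and GABPA, activators of nuclear respiratory genes, had log2 fold changes of -0.49 ± 0.19 (SE, adjusted p = 0.0732) and -0.030 ± 0.18 (SE, adjusted p = 0.898), and neither was called.

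Among 15 carriers and partners tested, 4 were called higher and 3 lower. The ADP/ATP carriers exchange ATP made in the matrix for cytosolic ADP. SLC25A31, the form of the germ line, was at 4.30, 5.66 and 0.121 FPKM in calf 1 to calf 3 and 31.0, 33.1 and 28.5 FPKM in bull 1 to bull 3, and SLC25A5, on the other side, at 12.2, 14.4 and 58.3 FPKM in calf 1 to calf 3 and 2.58, 2.44 and 3.64 FPKM in bull 1 to bull 3. SLC25A31 rose by 3.22 ± 0.68 (SE, adjusted p = 0.00797) and SLC25A5 fell by 2.58 ± 0.59 (SE, adjusted p = 0.0113) on the log2 scale, with 2.42 and -1.89 without calf 3. SLC25A6 was at 326, 368 and 51.1 FPKM in calf 1 to calf 3 and 46.3, 33.3 and 41.4 FPKM in bull 1 to bull 3, so that calf 3 was near the bulls, and it was not called with all 6 libraries and called lower without calf 3, at -3.08. The heart and muscle form SLC25A4 had a log2 fold change of -0.96 ± 0.32 (SE, adjusted p = 0.0422) and was called lower without calf 1, at -1.17, and after either rescaling of the 6 libraries. The 4 carriers together were at 397, 449.7 and 229 FPKM in the calves and 117, 109 and 108 FPKM in the bulls, lower in bulls than in calves. The phosphate carrier SLC25A3 fell by 1.38 ± 0.29 (SE, adjusted p = 0.00828), and of the outer membrane channels VDAC1 fell by 1.498 ± 0.29 (SE, adjusted p = 0.00604) while VDAC2 and VDAC3 rose by 1.61 ± 0.25 (SE, adjusted p = 0.00205) and 2.34 ± 0.15 (SE, adjusted p = 6.11e-05). All 4 of these calls were also made without calf 3.

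The 13 protein-coding genes of the mitochondrial genome, which supply the remaining subunits, summed to 6286, 9807 and 24724 FPKM in the calves and 6772, 5243 and 6518 FPKM in the bulls. Calf 3 was the highest library and the others overlapped. Of the 13 genes, none was called higher and 1, ND6, lower, with a log2 fold change of -1.79 ± 0.51 (SE, adjusted p = 0.0268). The list median was -1.09, and -0.35 without calf 3, when ND6 remained the 1 gene called.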

How the data were processed

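Total RNA of 6 testis samples, 3 labelled as calves and 3 as bulls, was sequenced after removal of ribosomal RNA, 1 library per animal. The authors deposited FPKM values per gene and per transcript; their methods name TopHat2 for mapping, StringTie for assembly and Cuffdiff and Ballgown for circular RNAs, and which tool made these gene and transcript values is not given in the sources used here. The methods name the assembly UMD 3.1.1, whereas scaffold names and positions in the tables are those of an ARS-UCD assembly, and positions are given as in the tables.

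Values were transformed to log2(FPKM + 1), entries that reached 1 FPKM in 3 or more libraries were tested, and the groups were compared with limma 3.58.1 in R 4.3.3, with an empirical Bayes trend and Benjamini-Hochberg adjustment over all entries tested. Entries were called where the adjusted p was under 0.05 and the log2 change reached 1 in either direction. The code was tested on simulated data. Figures were drawn with matplotlib 3.10.9. Log2 ratios of paralogs were tested by exact two-sided permutation. Alternatives were other scalings, pseudocounts, filters and models and leaving out each library.

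The members, role lists and marker lists were chosen with earlier results of these data known. Named genes were the paralogs, the 2 highest and 2 lowest log2 fold changes of each role list, every member called lower and the most abundant member of each complex; other genes were named after their values were seen. Of the 107 symbols, 105 matched RefSeq gene names directly and 2 as synonyms (ATP5MD as ATP5MK, ATP5MPL as ATP5MJ). Promoter motifs and protein sequences were not analysed here.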

Additional observations from a re-analysis of the deposited data

How the results depend on the processing

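The number of genes of the set called higher, 21 as reported, was 17 to 21 when 1 library was left out, and the number called lower, 7 as reported, was 6 to 9. The median log2 fold change of the set lay between 0.15 and 0.27 and the counts of other respiratory chain genes between 12 and 15 higher and between 5 and 13 lower when 1 library was left out, 13 lower being the count without calf 1. Quantile normalization gave 13 genes of the set higher and 27 lower, a median of -0.53, 7 other genes higher and 25 lower, and 27 transcript entries higher and 45 lower. With calf 3 also left out, which was chosen after seeing the data, it gave 13 higher, 27 lower and a median of -0.50. Rescaling to nuclear genes with a symbol gave 11 lower, a median of -0.16 and 13 other genes lower, and 12 lower and a median of -0.056 with calf 3 left out, also chosen after seeing the data. Median ratio scaling gave 11 lower and a median of -0.13. With any fold, 34 genes were higher and 15 lower. Array weights, no trend, no filter, a mean FPKM of at least 5 and a pseudocount of 0.1 kept both counts within 1.5 times. The scaling of the libraries is not fixed by these files, and the cause of its effect was not tested.

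The replicate numbers were not taken to pair animals, since deviations of same-numbered samples correlated by 0.03, 0.02 and 0.03, although each calf correlated best with the bull of its own number. With a replicate block, 20 genes were called higher and 7 lower, NDUFA5 being the call lost, and the transcript entries called were 41 and 8.

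Of the 52 named genes tested, 25 were called, and 19 of these kept the call under all 17 alternatives. Signs reversed only for genes that were not called, at these log2 fold changes: ATP5IF1 at -0.18 and COX17 at -0.13 after quantile normalization, and -0.15 and -0.17 with calf 3 also left out; NDUFS3 at -0.51, -0.068 and -0.034 after quantile normalization, rescaling and median ratio scaling, and -0.49 after quantile normalization with calf 3 left out; NDUFAF5 at 0.090 with array weights; SDHAF4 at -0.58, -0.19, -0.16 and -0.038 after quantile normalization, rescaling, median ratio scaling and array weights, and -0.16 and -0.59 after rescaling and quantile normalization with calf 3 left out. With 1 library left out, the log2 fold change ranged from -1.05 to 0.13 for COX4I2, from -0.34 to 0.30 for COX6B1, from -0.25 to 0.073 for NDUFAF5 and from -0.38 to 0.33 for SDHAF4.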

Other observations

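A few assembled entries were present in a single library. TCONS_00119129 of COX6A1 was at 41.1 FPKM in calf 1 and at or below 0.00882 FPKM elsewhere, and TCONS_00013941 of COX17 was at 28.6 FPKM in calf 1 and listed at 0 in the other 5 libraries. For NDUFA5, TCONS_00288482 was at 18.1 FPKM in bull 2 and at or below 0.0872 FPKM elsewhere. COX6B1-202 was at 50.8, 56.6 and 54.3 FPKM in the calves and 6.33, 72.7 and 60.3 FPKM in the bulls, so that bull 1 held the lowest value. These values were noticed after the data were seen and were not tested.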
